A study of Homo sapiens with 5 samples.

Results

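The genes of glycolysis, lactate handling and the response to low oxygen were examined as a set of 33 symbols, from the glucose transporters to the hypoxia-inducible factor HIF1A and 2 of its targets. All 33 were found among the 51055 Ensembl gene IDs of the deposited count table, and 31 passed the filter on low counts. The table holds 5 libraries of HL60, an established human promyelocytic leukaemia line. Cells labelled ZIP (n = 2) carried a lentiviral vector whose hairpin makes an RNA antisense to the microRNA miR-378a-3p, and cells labelled SCR (n = 2) carried the control vector, which the labels call both scramble and empty. Both lentivectors carry green fluorescent protein. They were spun onto the cells with polybrene (8 µg/mL) at 20 infectious units a cell, and puromycin (2 µg/mL) was present between day 3 and day 8 to select for them. The untransduced cells, labelled UNT (n = 1), received neither vector. The line came from ATCC, and nothing in the labels says whether the 2 libraries of a vector came from separate transductions. P-values therefore cover only how far these libraries varied, and that variation may be technical.

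Glycolysis splits glucose into pyruvate in a fixed order of enzymes, and many of its steps can be carried out by several isoenzymes encoded by different genes. Glucose enters through SLC2A transporters and is trapped by hexokinases, phosphofructokinase commits it to the pathway, and pyruvate is either passed to mitochondria or turned into lactate, which SLC16A transporters carry out of the cell. HIF1A is the oxygen-regulated subunit of a transcription factor that raises many of these genes when oxygen is low, and pyruvate dehydrogenase kinases hold pyruvate back from the mitochondria. Leukaemia cells are known for a high glycolytic flux.

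Library totals were 24406580 to 30925067 counts. The 2 libraries of a vector lay close together, with a mean chi-square per gene of 1.88 between the ZIP and 2.65 between the SCR libraries, against 98.3 to 151 between libraries of different groups. Promyelocyte markers were abundant in every library: their 8 genes summed to 22481 to 23138 CPM (counts relative to the library total, scaled by TMM factors) in ZIP, 12086 to 12088 CPM in SCR and 24849 CPM in UNT. The erythroid, lymphocyte, and stromal and epithelial lists each summed to 6.14 CPM or less in every library, with HBB, HBA1, HBA2, MS4A1 and COL3A1 at 0 counts throughout. Of 14 monocyte and macrophage markers 11 were lower and 1 was higher in ZIP than in SCR, where 33.2% and 32.2% of all tested genes were. Over UNT 12 were higher and 2 lower in SCR, where 32.7% and 32.2% of all tested genes were. In ZIP over UNT 6 were higher and 3 lower, where 28.5% and 29.7% of all tested genes were. None of the 14 markers was at 0 in any library. They summed to 1604 to 1609 CPM in ZIP, 1593 to 1600.1 CPM in SCR and 609 CPM in UNT, most of it LYZ, the lysozyme gene. Without LYZ the sums were 209 to 216 CPM in ZIP, 477 to 479 CPM in SCR and 286 CPM in UNT. The part of these markers in the results below was not tested. In such bulk libraries fewer cells of a kind and less RNA per cell cannot be told apart.

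The vector's target is shown first, with the places where the members' transcripts could pair with it. The seed of the microRNA, bases 2 to 8 of its 22, is in capitals in the RefSeq sequence from GRCh38.p14. Capitals in the lines after it mark AGTCCAG, the reverse complement of the seed, on the transcript strand in 3′ untranslated regions of GENCODE release 29 (GRCh38).
hsa-miR-378a-3p, chr5:149732867-149732888, plus strand: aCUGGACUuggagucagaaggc
SLC2A1 site, chr1:42925514-42925520, minus strand: cttcatcacaAGTCCAGttttctgcca
SLC2A3 site, chr12:7920425-7920431, minus strand: ttttggatggAGTCCAGggaagagaaa
PFKFB4 site, chr3:48518579-48518585, minus strand: ggccttgtgaAGTCCAGtgtctgtcat
PGK1 site, chrX:78127558-78127564, plus strand: cagggattcaAGTCCAGgtttgtctgg
BNIP3 site, chr10:131966778-131966784, minus strand: gaggatcacaAGTCCAGaagttcgaga
Of the 33 members 7 held at least 1 such match (21.2%), with 9 matches in all, against 1379 of 12118 tested genes with an annotated 3′ untranslated region (11.4%). The others were PDK4 with 1 match and PDK1 with 3. The median length of the region was 1110 bases in the members and 1067 bases in the tested genes. All 7 members with a match had longer regions, from 1666 bases in SLC2A1 to 12700 bases in PDK1. The 2 percentages were not adjusted for length. The 33 also include PDK4 and EGLN3, which were not tested for a difference, while the 12118 are tested genes only. A match is a run of letters, not a shown binding site. BNIP3 held the only match followed by an A. The 6 tested members with a match had a median log2 fold change of -0.54 in ZIP over SCR, and they did not move one way: SLC2A1 and PGK1 were higher, SLC2A3, PFKFB4, PDK1 and BNIP3 lower. Over all tested genes the median was -0.02 with a match and -0.01 without one.

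Between ZIP and SCR the most abundant enzymes, GAPDH, ENO1 and ALDOA, differed by at most 0.12 on the log2 scale, while SLC2A3, ALDOC and ENO2 were far lower in ZIP. Of the 31 tested members 9 were higher and 15 lower in ZIP, and 7 did not pass (edgeR quasi-likelihood test, Benjamini-Hochberg adjusted p under 0.05 over 14643 genes). Over all tested genes 65.4% passed, 32.2% higher and 33.2% lower. Whether the members differ from that background was not tested. With library totals in place of TMM factors the members split into 6 higher and 19 lower. All tested genes then split into 4026 higher and 5492 lower, against 4712 and 4859 with TMM factors. At 2-fold or more 6 members were lower in ZIP and 0 higher, where 11.0% of all tested genes were lower and 3.13% higher by that much. These 6 were SLC2A3, HK1, PFKFB4, ALDOC, ENO2 and PDK2. The median log2 fold change was -0.09 over the members and -0.00 over all genes. The members together held 1.62% to 1.64% of all counts in ZIP, 1.58% to 1.59% in SCR and 1.60% in UNT. PDK4 and EGLN3 had at most 2 counts in any library and were not tested.

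**Figure D1:**
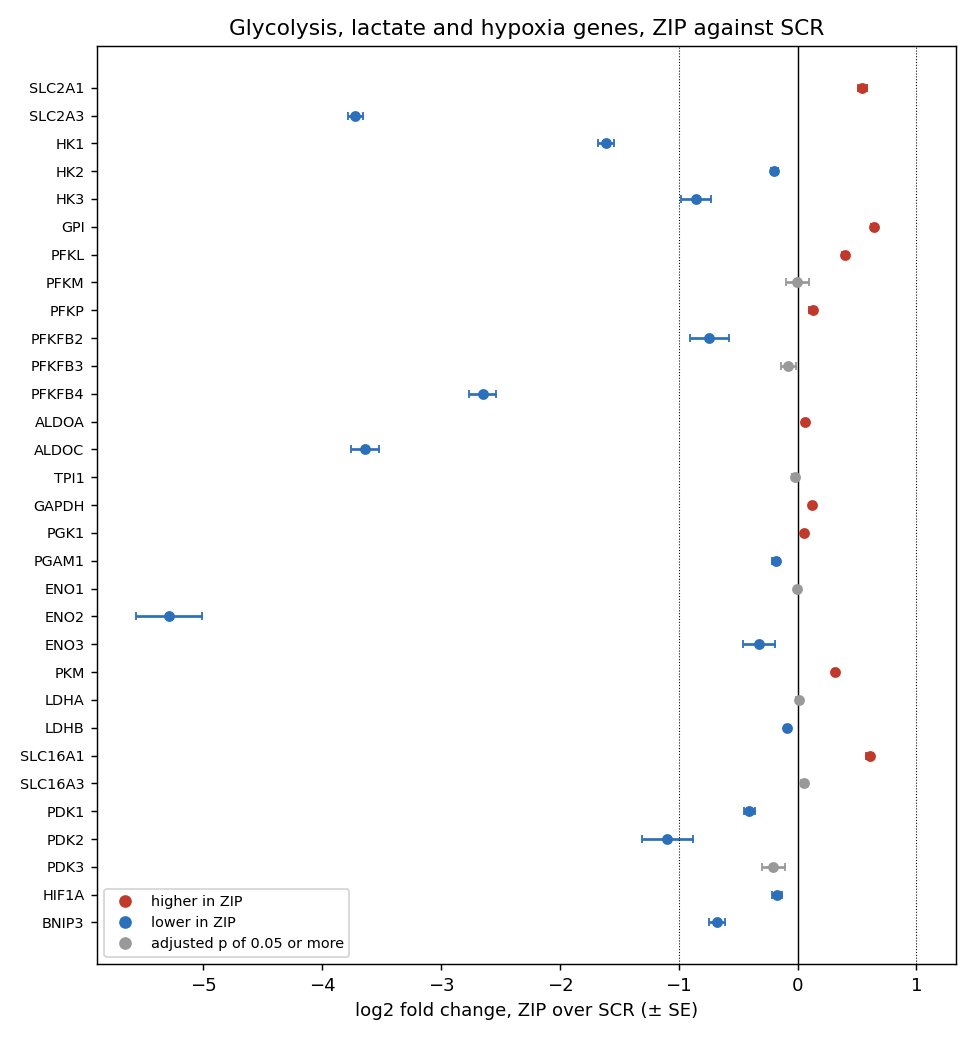
Log2 fold change of ZIP over SCR (horizontal axis, with its standard error, n = 2 and 2) for the 31 tested genes, in pathway order down the page. Points are coloured by direction where the adjusted p was under 0.05, and dotted lines mark 2-fold. SLC2A3, ALDOC and ENO2 lie furthest to the left, and GPI, SLC16A1 and SLC2A1 furthest to the right.

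The glucose transporters moved in opposite directions between ZIP and SCR. SLC2A1 (GLUT1, ENSG00000117394, chromosome 1, 42925375 to 42959176), the widely used basal glucose transporter, stood at 80.5 and 80.1 CPM in ZIP, 53.6 and 56.6 CPM in SCR and 52.4 CPM in UNT. Both ZIP libraries lay above all the others, and SCR and UNT lay close below them (log2 fold change 0.55 ± 0.04, SE, ZIP over SCR, adjusted p = 8.5e-11 by edgeR). SCR over UNT did not pass for SLC2A1 (0.07 ± 0.05), but did with library totals (0.18, adjusted p = 0.0035 by edgeR). SLC2A3 (GLUT3, ENSG00000059804, chromosome 12, 7919230 to 7936275), a transporter of high affinity known from neurons and white blood cells, stood at 5.42 and 5.46 CPM in ZIP, 72.0 and 71.9 CPM in SCR and 6.05 CPM in UNT. Only the SCR libraries were high, and ZIP was 13.2-fold lower than SCR (log2 fold change -3.72 ± 0.06, adjusted p = 1.9e-20 by edgeR). Against UNT the ZIP cells did not pass for SLC2A3 (-0.15 ± 0.14, adjusted p = 0.37 by edgeR), while SCR was higher by 3.57 ± 0.09 (adjusted p = 6.9e-20). Per kilobase of exon, SLC2A1 made up 95.1% and 95.0% of the summed level of both genes in ZIP, 49.2% and 50.6% in SCR, and 91.9% in UNT (95% Wilson interval 90.5 to 93.1, counting error only). SLC2A14, a near-identical copy of SLC2A3, had at most 7 counts in any library. SLC2A4, a transporter outside the set and outside these shares, had 9.80 and 8.81 CPM per kilobase in ZIP, 8.42 and 8.16 in SCR and 2.53 in UNT. CD14, 1 of the 14 monocyte and macrophage markers, was also high in SCR alone, at 3.50 and 4.18 CPM in ZIP, 54.7 and 53.6 CPM in SCR and 2.09 CPM in UNT. Other markers of that list differed: LYZ was higher in ZIP than in SCR (0.32 ± 0.02). S100A8 did not pass (-0.02 ± 0.05) and was highest in UNT, at 88.7 CPM. Whether these markers bear on SLC2A3 was not tested.

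All 3 hexokinases, which phosphorylate glucose on entry, were lower in ZIP than in SCR, but by unequal amounts. HK1 (ENSG00000156515, chromosome 10, 69269984 to 69401884), the broadly expressed form, had 13.8 and 12.1 CPM in ZIP, 40.5 and 39.5 CPM in SCR and 4.68 CPM in UNT, so that each group stood apart. It was 3.06-fold lower in ZIP than in SCR (log2 fold change -1.61 ± 0.07, adjusted p = 1.7e-14 by edgeR) and higher than UNT in both, by 1.48 ± 0.13 in ZIP and 3.09 ± 0.11 in SCR. HK2, the form inducible by hypoxia and insulin, led the 3 members with 154 and 156 CPM in ZIP, 183 and 173 CPM in SCR and 110.0 CPM in UNT. The difference from SCR was small (-0.20 ± 0.03, adjusted p = 8.7e-06 by edgeR). HK3, the form found in white blood cells, had 4.28 and 3.60 CPM in ZIP, 7.10 and 7.32 CPM in SCR and 19.8 CPM in UNT, with UNT the highest. It fell by 2.32 ± 0.12 in ZIP and by 1.46 ± 0.11 in SCR against UNT on the log2 scale. Per kilobase, HK2 held 87.9% and 89.5% of the sum of the 3 members in ZIP, 77.8% and 77.1% in SCR and 72.8% in UNT (Wilson interval 71.0 to 74.5). HK3 held 4.49% and 3.81% in ZIP, 5.58% and 5.99% in SCR and 24.2% in UNT (Wilson interval 22.5 to 26.0), and HK1 held 7.58% and 6.70% in ZIP, 16.6% and 16.9% in SCR and 2.98% in UNT. These shares leave out ADPGK, a gene outside the set that also phosphorylates glucose. ADPGK had 31.2 and 31.1 CPM per kilobase in ZIP, 31.0 and 29.4 in SCR and 36.7 in UNT. HK2 had 25.5 and 25.7 in ZIP, 30.1 and 28.6 in SCR and 18.1 in UNT.

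GPI, which turns glucose 6-phosphate into fructose 6-phosphate, had the highest log2 fold change of the members in ZIP over SCR, with 832 and 837 CPM in ZIP, 534 and 539 CPM in SCR and 817 CPM in UNT. The ZIP and UNT levels of GPI lay close (0.03 ± 0.03, adjusted p = 0.31 by edgeR, but 0.08 and 0.0082 with library totals), and ZIP was 1.56-fold above SCR (0.64 ± 0.02, adjusted p = 9.7e-16). The phosphofructokinases carry out the committed step. PFKL, the liver-type subunit and the leading one here, had 442 and 442 CPM in ZIP, 338 and 334 CPM in SCR and 396 CPM in UNT (0.40 ± 0.03 in ZIP over SCR, adjusted p = 1.9e-11 by edgeR). PFKP, the platelet type, was higher in ZIP than in SCR by only 0.13 ± 0.03, and this call was lost with library totals (adjusted p = 0.059). It stood at 97.4 and 97.3 CPM in ZIP, 89.1 and 89.3 CPM in SCR and 68.6 CPM in UNT. PFKM, the muscle type, did not pass in any comparison, at 9.46 to 11.4 CPM in all 5 libraries. Its exons share 628 bases with SENP1 on the opposite strand, so its counts are uncertain. PFKL's share of the step per kilobase was 69.7% and 69.6% in ZIP, 65.7% and 65.1% in SCR and 73.9% in UNT.

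The PFKFB enzymes make and break fructose 2,6-bisphosphate, the strongest activator of phosphofructokinase. PFKFB3, the form with the highest kinase activity, had 23.7 and 25.5 CPM in ZIP, 25.1 and 26.7 CPM in SCR and 20.4 CPM in UNT, and ZIP and SCR overlapped (-0.08 ± 0.06, adjusted p = 0.28 by edgeR). PFKFB4 (ENSG00000114268, chromosome 3, 48517684 to 48562015), a hypoxia-inducible form, had 2.42 and 3.31 CPM in ZIP, 17.8 and 17.7 CPM in SCR and 1.88 CPM in UNT. The SCR libraries alone were high, and ZIP was 6.29-fold lower (-2.65 ± 0.12, adjusted p = 5.8e-14 by edgeR). Against UNT the ZIP value passed narrowly (0.58 ± 0.24, adjusted p = 0.044) and was 0.37 with an adjusted p of 0.24 without ZIP 2. PFKFB2 had 2.12 and 2.23 CPM in ZIP, 3.67 and 3.62 CPM in SCR and 0.376 CPM in UNT, where it rested on 9 counts. It was higher than UNT in ZIP by 2.52 ± 0.37 and in SCR by 3.26 ± 0.33, and lower in ZIP than in SCR by -0.74 ± 0.17 as a log2 fold change. YOD1 overlaps PFKFB2 by 315 exon bases on the opposite strand and had more counts than PFKFB2 in every library. Per kilobase, PFKFB3 made up 86.5% and 84.6% of the step in ZIP, 55.6% and 57.4% in SCR and 90.6% in UNT (Wilson interval 88.0 to 92.8), and PFKFB4 8.83% and 11.0% in ZIP, 39.5% and 38.0% in SCR and 8.35% in UNT.

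**Figure D2:**
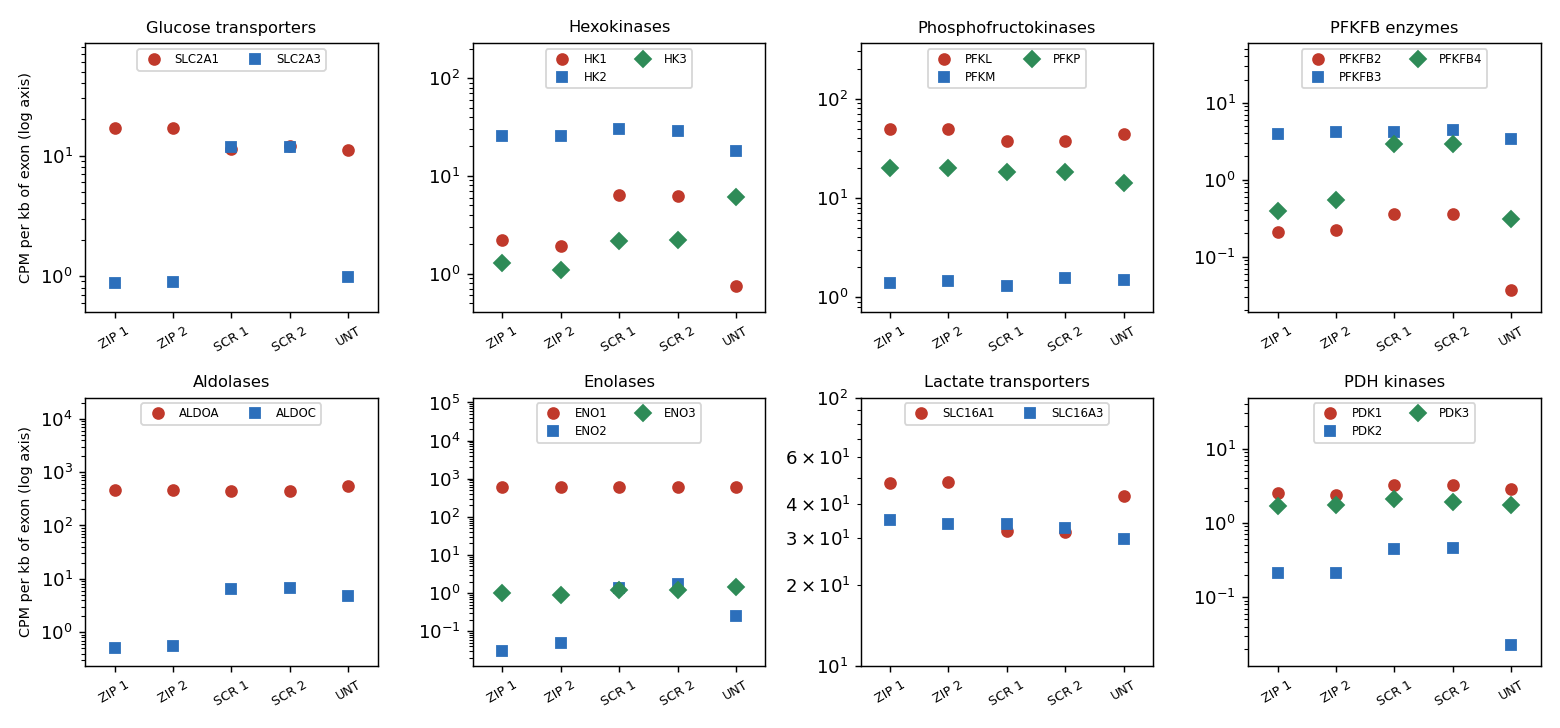
Level of each isoenzyme in each library, as CPM per kilobase of exon on a log axis, for the 8 steps with several genes apart from lactate dehydrogenase; each point is 1 library, and PDK4 is left out. SLC2A3, HK1, PFKFB4, ALDOC, ENO2 and PDK2 are lower in both ZIP libraries than in both SCR libraries, while ENO1 lies at 594 to 609 in all 5.

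The main enzymes from aldolase to enolase differed by small amounts between ZIP and SCR, while PKM, given further below, differed more (0.31 ± 0.02). ALDOA, the aldolase that splits fructose bisphosphate, had 1828 and 1812 CPM in ZIP, 1745 and 1745 CPM in SCR and 2148 CPM in UNT (0.06 ± 0.02 in ZIP over SCR, and 0.00 with library totals, where the call was lost). TPI1, GAPDH, PGK1 and PGAM1 carry out the next steps to 2-phosphoglycerate and had log2 fold changes of -0.03 ± 0.02, 0.12 ± 0.01, 0.05 ± 0.02 and -0.19 ± 0.03 in ZIP over SCR. TPI1 did not pass, but did with library totals (-0.09, adjusted p = 0.0035). The PGK1 call was lost without SCR 1 (adjusted p = 0.060) and without SCR 2 (adjusted p = 0.17), and its sign changed with library totals. GAPDH, often used as a reference gene, stood at 4149 and 4054 CPM in ZIP, 3759.8 and 3787 CPM in SCR and 4507 CPM in UNT. TPI1 had 496 and 491 CPM in ZIP, 506 and 501 CPM in SCR and 579 CPM in UNT, and PGK1 had 856 and 857 CPM in ZIP, 829 and 822 CPM in SCR and 903 CPM in UNT. PGAM1 had 102 and 103 CPM in ZIP, 117 and 117 CPM in SCR and 137 CPM in UNT. All 4 were lower than UNT in both vectors' cells, by at most 0.41 on the log2 scale. For PGK1 these differences were -0.08 in ZIP and -0.13 in SCR, and with library totals they were -0.03 and -0.02 and did not pass (adjusted p = 0.39 and 0.49 by edgeR). ENO1, the main enolase, stood at 3206 and 3134 CPM in ZIP, 3211 and 3141 CPM in SCR and 3145 CPM in UNT, and passed in none of the 3 comparisons with TMM factors. With library totals ENO1 passed in all 3, at -0.06 in ZIP over SCR (adjusted p = 0.0011 by edgeR), 0.06 in ZIP over UNT (adjusted p = 0.0034) and 0.12 in SCR over UNT (adjusted p = 8.5e-07). Without ZIP 2 it passed in ZIP over UNT (0.04, adjusted p = 0.015).

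ALDOC and ENO2, minor forms of aldolase and enolase, were far lower in ZIP than in SCR. ALDOC (ENSG00000109107, chromosome 17, 28573115 to 28577264), the brain-type aldolase, had 1.47 and 1.61 CPM in ZIP, 18.9 and 19.4 CPM in SCR and 14.1 CPM in UNT. Here UNT lay near SCR, and ZIP was low against both: 12.5-fold below SCR (-3.64 ± 0.12, adjusted p = 5.5e-16 by edgeR) and lower than UNT by a log2 fold change of -3.19 ± 0.15 (adjusted p = 1.7e-14). ENO2 (ENSG00000111674, chromosome 12, 6913745 to 6923698), the neuronal enolase, had 4 and 5 counts in the ZIP libraries, 151 and 187 counts in SCR and 25 counts in UNT, or 0.131 and 0.207, 5.95 and 7.28, and 1.04 CPM. ZIP was 39.2-fold below SCR (-5.29 ± 0.28, adjusted p = 9.7e-13 by edgeR), and UNT lay between them, with ZIP at -2.63 ± 0.51 (adjusted p = 0.00011) and SCR at 2.66 ± 0.25 (adjusted p = 2.2e-09) against it. ENO3, the muscle enolase, had 4.41 and 3.89 CPM in ZIP, 5.32 and 5.17 CPM in SCR and 6.01 CPM in UNT. It passed in ZIP against SCR (-0.33 ± 0.13, adjusted p = 0.038 by edgeR), but not when either SCR library or ZIP 2 was left out (adjusted p of 0.069 to 0.18), and PFN1, a gene with 13475 counts or more in each library, overlaps it on the opposite strand. ALDOA and ENO1 held nearly all of their steps in every library. ALDOC held 0.107% and 0.119% of aldolase per kilobase in ZIP, 1.43% and 1.47% in SCR and 0.868% in UNT (Wilson interval 0.781 to 0.966), and ENO2 held 0.284% of enolase or less in every library.

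Pyruvate kinase and the lactate transporter SLC16A1 were higher in ZIP than in SCR, while SLC16A3 and LDHA did not pass. PKM, which makes pyruvate, had 1698 and 1700.3 CPM in ZIP, 1364 and 1373 CPM in SCR and 1181 CPM in UNT (0.31 ± 0.02 in ZIP over SCR, adjusted p = 1.4e-12 by edgeR), so that the order was ZIP, SCR, UNT. Gene counts do not tell its M1 and M2 forms apart. LDHA, whose subunit favours making lactate, did not pass in ZIP against SCR (0.01 ± 0.02), with 861 and 868 CPM in ZIP, 858 and 860.2 CPM in SCR and 925 CPM in UNT. LDHB, whose subunit favours pyruvate, had 968 and 948 CPM in ZIP, 1014 and 1023 CPM in SCR and 1102 CPM in UNT (-0.09 ± 0.02). Per kilobase LDHB held 70.1% and 69.4% of the step in ZIP, 71.1% and 71.2% in SCR and 71.3% in UNT. The lactate transporter SLC16A1 (MCT1) had 255 and 258 CPM in ZIP, 169 and 168 CPM in SCR and 229 CPM in UNT, with SCR the lowest (0.61 ± 0.03 in ZIP over SCR, adjusted p = 1.1e-13 by edgeR). SLC16A3 (MCT4), the export form of glycolytic cells, had 314 and 305 CPM in ZIP, 303 and 294 CPM in SCR and 267 CPM in UNT, and did not pass between ZIP and SCR (0.05 ± 0.03, adjusted p = 0.10 by edgeR), though SLC16A3 did without SCR 1 (0.08, adjusted p = 0.038) and without ZIP 2 (0.08, adjusted p = 0.033). CSNK1D overlaps SLC16A3 by 482 exon bases on the opposite strand. SLC16A1 made up 57.9% and 58.9% of the 2 transporters in ZIP, 48.6% and 49.2% in SCR and 59.2% in UNT (Wilson interval 58.3 to 60.1). With the length of the principal transcript in place of all exons, SLC16A3 led in every group, and SLC16A1 made up 47.8% in ZIP, 38.4% in SCR and 48.6% in UNT on average.

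**Figure D3:**
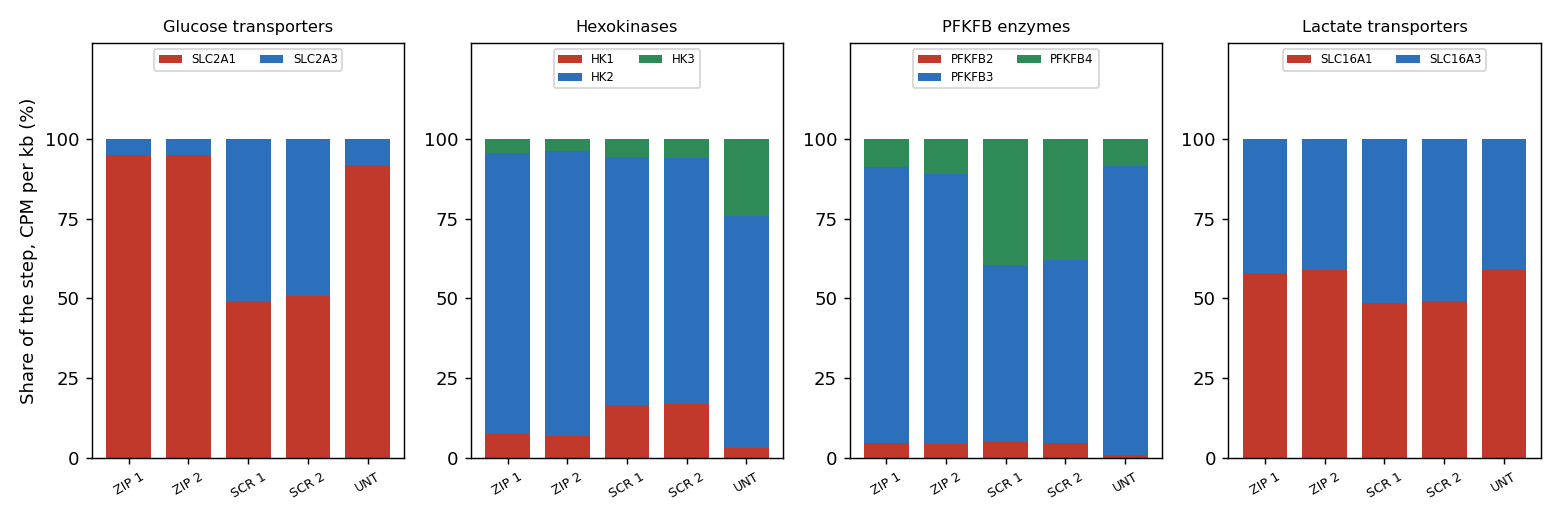
Share of each gene in the summed level of the set's members of its step (CPM per kilobase of exon, in percent), 1 bar for each library, for 4 steps. Genes outside the set are left out. SLC2A3 and PFKFB4 take larger shares in both SCR libraries than in the ZIP and UNT libraries, and HK3 takes its largest share in UNT.

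The kinases that switch off pyruvate dehydrogenase were low throughout. PDK1, a hypoxia-inducible form, had 37.4 and 35.5 CPM in ZIP, 48.7 and 48.1 CPM in SCR and 42.7 CPM in UNT, and was lower in ZIP than in SCR (-0.41 ± 0.05, adjusted p = 2.6e-07 by edgeR). PDK2 had 35 and 28 counts in ZIP, 61 and 65 in SCR and 3 in UNT, which is 1.14 and 1.16, 2.41 and 2.53, and 0.125 CPM. ZIP was 2.14-fold below SCR (-1.10 ± 0.21, adjusted p = 0.00014 by edgeR). With 3 counts in UNT the ratio to it was 9.18 for ZIP (exact 95% interval 3.0 to 45.7) and 19.7 for SCR (6.59 to 96.8). PDK3 passed in none of the 3 comparisons, at 8.40 and 8.64 CPM in ZIP, 10.3 and 9.38 CPM in SCR and 8.77 CPM in UNT. In ZIP over SCR PDK3 did pass with library totals (-0.26, adjusted p = 0.023 by edgeR) and without SCR 2 (-0.27, adjusted p = 0.049). PDK4, the form induced by fasting, had 1 and 1 counts in ZIP, 0 and 1 in SCR and 0 in UNT, all under the 3 counts that a count of 0 allows. PDK1 led the step per kilobase of all exons, with 56.8% and 54.8% in ZIP, 56.6% and 57.8% in SCR and 61.6% in UNT. This order depended on the length used: with the principal transcript PDK3 led, at 60.4% in ZIP, 55.3% in SCR and 59.95% in UNT on average.

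HIF1A and BNIP3 were lower in ZIP than in SCR, and EGLN3 was at most 2 counts. HIF1A itself had 54.2 and 59.0 CPM in ZIP, 63.5 and 63.6 CPM in SCR and 43.1 CPM in UNT. The groups did not overlap, but the call between ZIP and SCR (-0.17 ± 0.04, adjusted p = 0.0015 by edgeR) was lost without ZIP 1 (-0.11, adjusted p = 0.051). Against UNT it was higher in ZIP by 0.39 ± 0.06 and in SCR by 0.56 ± 0.06. HIF1A is governed largely by breakdown of its protein, which these counts do not measure. BNIP3, a mitochondrial protein of mitophagy and a known HIF target, had 17.2 and 15.8 CPM in ZIP, 27.1 and 26.0 CPM in SCR and 21.2 CPM in UNT (-0.68 ± 0.07 in ZIP over SCR, adjusted p = 1.6e-08 by edgeR), with UNT between the vectors. Rows of BNIP3 pseudogenes held 14.3% to 18.6% as many counts as BNIP3, so its counts are uncertain. EGLN3, a prolyl hydroxylase that marks HIF1A for breakdown and is itself a HIF target, had 0 and 1 counts in ZIP, 2 and 0 in SCR and 0 in UNT.

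Genes outside the set were read from a list of 31 further hypoxia genes found in the table, of which 26 were tested. This list was chosen with earlier results of these data known. The list is not limited to genes that low oxygen raises: it also holds HIF1AN, ARRDC4, MLXIP, ARNT, VHL and EPAS1. In ZIP against SCR 16 of the 26 were lower and 7 higher, with a median of -0.29, where 33.2% and 32.2% of all tested genes were lower and higher. The 7 include HIF1AN (0.20), ARRDC4 (0.68) and MLXIP (0.47), and the 16 include ARNT (-0.41), VHL (-0.38) and EPAS1 (-2.50). At 2-fold or more 5 were lower and 1 was higher, against 11.0% and 3.13% of all tested genes. VEGFA, the growth factor for blood vessels, had 59.9 and 60.5 CPM in ZIP, 163 and 162 CPM in SCR and 53.0 CPM in UNT (-1.43 ± 0.03). DDIT4, an inhibitor of mTORC1, had 26.4 and 25.8 CPM in ZIP, 84.2 and 80.3 CPM in SCR and 31.0 CPM in UNT (-1.65 ± 0.04). The SCR libraries were the high ones for both. BNIP3L, a relative of BNIP3, had 25.9 and 27.6 CPM in ZIP, 72.3 and 78.6 CPM in SCR and 39.4 CPM in UNT (-1.50 ± 0.05), and the mitochondrial adenylate kinase AK4 had 20.5 and 21.5 CPM in ZIP, 56.7 and 55.6 CPM in SCR and 33.9 CPM in UNT (-1.42 ± 0.05). EPAS1 (HIF2A) had 11 and 6 counts in ZIP, 46 and 45 in SCR and 0 in UNT (-2.50 ± 0.32 in ZIP over SCR). Set against a floor of 3 counts in UNT, EPAS1 was at least 2.48-fold higher in ZIP and at least 14.2-fold higher in SCR. These 2 lower bounds leave out the counting error of the ZIP and SCR libraries. ADM, the vasodilator adrenomedullin, went the other way, with 9.02 and 8.77 CPM in ZIP, 4.38 and 4.51 CPM in SCR and 2.84 CPM in UNT (1.0 ± 0.11). For each of these 6 the edgeR adjusted p was at most 9.5e-07. The symbols EGLN2 and TXNIP were not matched by name and were not analysed here.

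**Figure D4:**
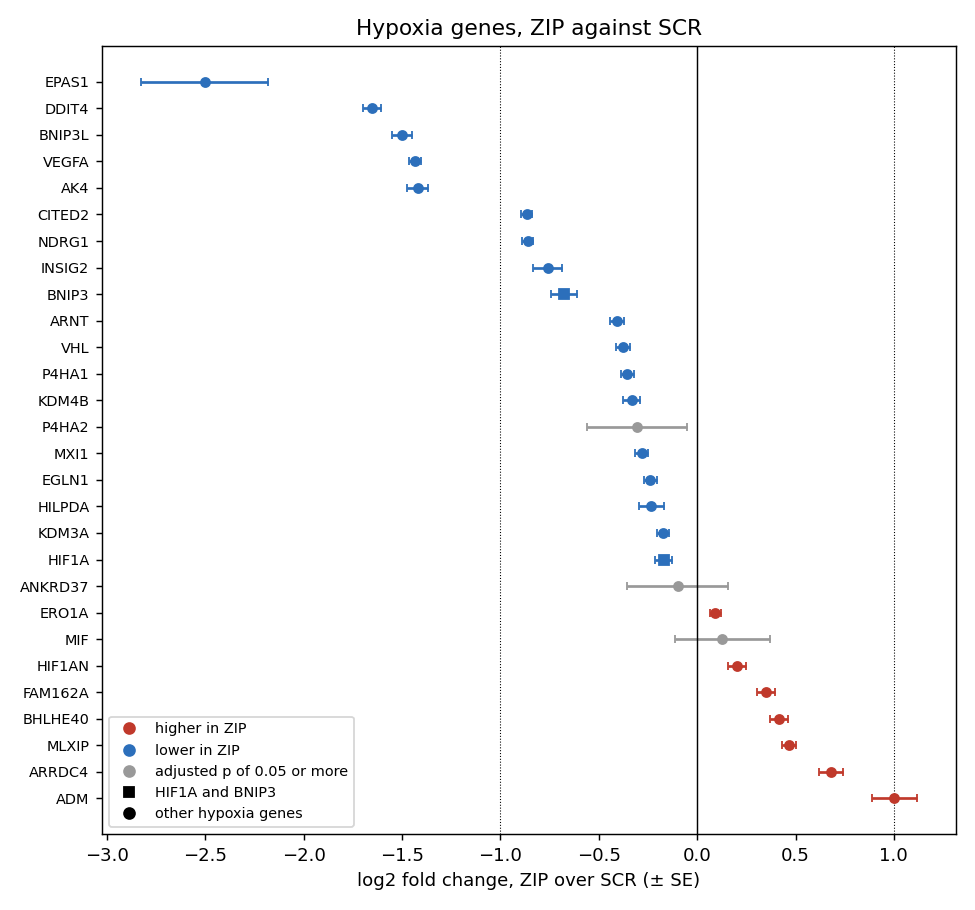
Log2 fold change of ZIP over SCR (horizontal axis, with its standard error, n = 2 and 2) for HIF1A and BNIP3 (squares) and the 26 tested genes of the further hypoxia list (circles), ordered by the value. Colours show the direction where the adjusted p was under 0.05, and dotted lines mark 2-fold. EPAS1, DDIT4, BNIP3L, VEGFA and AK4 lie left of the lower line and ADM lies on the upper one.

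Of 50 further genes of sugar entry, pyruvate and the pentose phosphate pathway, 37 were tested between ZIP and SCR, 15 were higher and 10 lower, where 32.2% of all tested genes were higher and 33.2% lower. With library totals the split was 12 higher and 13 lower, and over all tested genes 4026 higher and 5492 lower. The list of 50 was chosen with earlier results of these data known. The median was 0.06, and 1 gene changed by 2-fold or more, where 14.1% of all tested genes did: SLC2A6 (GLUT6), a transporter of myeloid cells, had 1.47 and 1.86 CPM in ZIP, 14.3 and 12.7 CPM in SCR and 0.417 CPM in UNT (-3.03 ± 0.14, adjusted p = 1.2e-13 by edgeR). Its SCR libraries were the high ones, as they were for SLC2A3.

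Promoters of 3 of the genes that were far lower in ZIP are shown with that of LDHA, which did not pass, to set their hypoxia-type letters side by side. Each runs from 250 bases before to 50 after a RefSeq transcription start in GRCh38.p14, and capitals mark ACGTG or GCGTG, the core of the hypoxia response element, on either strand. CACGTG, the E-box letters, holds ACGTG on both strands and is counted on each.
PFKFB4 promoter, chr3:48556754-48557053, minus strand: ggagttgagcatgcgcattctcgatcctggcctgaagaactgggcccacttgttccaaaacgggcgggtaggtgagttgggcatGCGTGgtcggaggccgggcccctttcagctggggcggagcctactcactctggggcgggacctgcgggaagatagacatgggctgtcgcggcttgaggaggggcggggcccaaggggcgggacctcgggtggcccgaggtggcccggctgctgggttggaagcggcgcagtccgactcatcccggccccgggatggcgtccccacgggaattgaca
ALDOC promoter, chr17:28576846-28577145, minus strand: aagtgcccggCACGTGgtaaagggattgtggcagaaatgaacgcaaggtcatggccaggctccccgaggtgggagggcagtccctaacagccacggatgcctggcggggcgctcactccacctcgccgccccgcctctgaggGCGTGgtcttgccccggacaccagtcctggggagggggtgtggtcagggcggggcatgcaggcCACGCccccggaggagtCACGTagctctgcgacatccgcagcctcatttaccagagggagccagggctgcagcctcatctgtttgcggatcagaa
ENO2 promoter, chr12:6914330-6914629, plus strand: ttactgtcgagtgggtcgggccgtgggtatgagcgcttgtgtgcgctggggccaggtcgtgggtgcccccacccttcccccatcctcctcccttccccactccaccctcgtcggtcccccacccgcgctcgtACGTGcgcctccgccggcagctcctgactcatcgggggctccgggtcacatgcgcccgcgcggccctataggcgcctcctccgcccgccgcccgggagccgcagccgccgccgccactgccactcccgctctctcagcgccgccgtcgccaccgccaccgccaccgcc
LDHA promoter, chr11:18394313-18394612, plus strand: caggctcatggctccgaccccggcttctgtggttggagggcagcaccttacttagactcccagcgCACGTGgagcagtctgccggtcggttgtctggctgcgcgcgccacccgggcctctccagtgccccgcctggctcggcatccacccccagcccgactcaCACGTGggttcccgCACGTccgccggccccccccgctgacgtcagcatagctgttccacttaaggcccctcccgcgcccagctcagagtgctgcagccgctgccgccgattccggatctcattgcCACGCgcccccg
ALDOC held 3 ACGTG and 2 GCGTG matches, ENO2 held 1 and 0, PFKFB4 held 0 and 1, and the LDHA promoter shown held 5 and 1. That LDHA promoter held the most ACGTG matches of all member promoters, so it is not a typical one. A further LDHA promoter in the table held 0 ACGTG and 1 GCGTG. HK1 and PDK2, also past 2-fold, are not shown: no HK1 promoter held ACGTG, and 1 PDK2 promoter held 2. The HK1 promoters starting at bases 69317931 and 69318814 of chromosome 10 each held 1 GCGTG. That PDK2 promoter held 1 GCGTG as well. Whether such letters go with the change was not tested. RefSeq gave 60 promoters for 30 of the members, and none was used for SLC2A3, PFKFB2 and SLC16A1. ACGTG was in 21 of the 60 (35%) and in 7518 of all 35116 promoters (21.4%). GCGTG was in 24 of the 60 (40%) and in 36.5% of all. Several promoters of 1 gene overlap and share letters.

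The cells of each vector were also set against the 1 untransduced library, which was assumed to vary like the others. Both comparisons share it, and it cannot be told apart from other ways in which that culture differed. In ZIP against UNT 13 members were higher and 13 lower, where 58.2% of all 15832 tested genes passed, 28.5% higher and 29.7% lower. Library totals gave 15 higher and 11 lower members and shifted the all-gene median by 0.05. By 2-fold or more 3 members were higher and 3 lower, where 8.70% and 5.19% of all genes were. The 3 higher were HK1, PFKFB2 and PDK2, and the 3 lower HK3, ALDOC and ENO2. In SCR against UNT 15 members were higher and 11 lower, where 64.9% of all tested genes passed, 32.7% higher and 32.2% lower. Library totals shifted the all-gene median by 0.11 and gave 17 higher and 8 lower members. At 2-fold or more 6 were higher (14.5% of all genes) and 1 was lower (5.86%). The 6 were SLC2A3, HK1, PFKFB2, PFKFB4, ENO2 and PDK2, and HK3 was the lower one. The median over the members was -0.04 in ZIP and 0.16 in SCR over UNT, against 0.00 and 0.02 over all genes.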

How the data were processed

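RNA of 5 HL60 libraries was sequenced on a HiSeq 2500 from a TruSeq Small RNA kit, per the labels' protocols. The authors deposited raw counts per Ensembl gene ID, without normalization, as whole numbers with unequal totals show. Bowtie2 and featureCounts are named in the submitters' processing notes, and CASAVA 1.8.2, TopHat 2, Cufflinks and HTSeq in the series' design text. Which of these made the table was not stated, and genome build, annotation and strand are likewise not given in the sources used here. Genes that overlap on opposite strands or have near-identical copies are therefore uncertain. IDs were named and exon lengths taken from GENCODE release 29 and a table of symbols (44305 of 51055 IDs). Columns were matched to libraries by the description label, and 0 columns were left over.

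Low genes were removed by filterByExpr with a minimum count of 10 and a minimum total of 15. TMM scaling followed, and genes were tested with the edgeR 4.0.16 quasi-likelihood test in R 4.3.3, with Benjamini-Hochberg adjustment over all tested genes at 0.05. ZIP against SCR used 4 libraries and the comparisons with UNT all 5, each with 2 residual degrees of freedom. The fits were run on simulated data in which a small part of the genes changed, equally up and down. The differences here were many and uneven, so that run cannot vouch for the scaling in these data. SE is the absolute log2 fold change divided by the square root of the F statistic. Levels per kilobase divide CPM by the summed exon length. An exact permutation test of 2 libraries against 2 cannot go below 0.333, so shares were not tested. Wilson and exact intervals and the floor of 3 counts cover counting error only. Reads were not tied to single molecules. Same-numbered SCR and ZIP libraries did not deviate together. Alternatives were DESeq2 1.42.0, limma 3.58.1, other scalings and filters, pseudogene counts added to their parent, and each library left out. Per-library values are given for the leading isoenzyme of each step and for members past 2-fold, and from the other lists for genes past 2-fold and 1 CPM, up to 8 a list. The members and lists were chosen with earlier results of these data known.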

Additional observations from a re-analysis of the deposited data

How the results depend on the processing

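The 6 members that were lower in ZIP than in SCR by 2-fold or more kept their direction and their call under all 13 alternatives run, which included another scaling, filter or test, added pseudogene counts and each library left out, with SLC2A3 at -3.78 to -3.71 and ENO2 at -5.60 to -4.97. The 6 and 7 members past 2-fold against UNT kept theirs under all 11. Counts of members called stayed within 1.5 times of the reported ones. The number of genes past 2-fold in ZIP against UNT was 1407 with DESeq2's Wald test, against 2199. Signs changed only for log2 fold changes near 0. In ZIP over SCR, library totals gave -0.0057 for PGK1, -0.0492 for LDHA (adjusted p = 0.036) and -0.006 for SLC16A3, DESeq2 size factors and DESeq2's test each gave 0.0004 for ENO1, and PFKM was 0.0015 with DESeq2's test, 0.002 with limma voom and 0.006 with the replicate block. Over UNT, library totals gave 0.008 for PDK3 in ZIP, and 0.0395 for PFKM and 0.0022 for LDHA in SCR. Leaving out single libraries gave -0.0206 to 0.024 for ENO1 and -0.1286 to 0.1394 for PFKM in ZIP over SCR, -0.0047 to 0.0372 for ENO1 in ZIP over UNT, and -0.0003 to 0.0387 for ENO1 and -0.2055 to 0.0607 for PFKM in SCR over UNT. The causes were not tested.

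The difference in the leading isoenzyme's share, ZIP minus SCR in percentage points, depended on the length used. SLC2A1's was 45.1 per kilobase of all exons, 50.3 from raw counts and 49.1 with principal transcripts, the last a choice made after seeing the data. PFKL's was 4.23, 3.27 and 3.39, ALDOA's 1.33, 1.002 and 0.812, and ENO1's 0.291, 0.236 and 0.220 in the same order. HK2's was 11.3, and 15.0 with principal transcripts, and PFKFB3's was 29.05 and 31.9.

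The replicate numbers of SCR and ZIP did not pair the libraries (correlation of deviations 0.02). With the replicate block 24 members were called, 9 higher and 15 lower, as without it, and 9709 genes against 9571. No paired analysis was possible against UNT because that library carries no number. Genes with a few counts, such as ENO2 in ZIP and PDK2 in UNT, limit how closely their folds are known.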
